A study of Mus musculus with 11 samples.

Results

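The transcripts of the adrenomedullin ligands and of the subunits of their receptors were followed in mouse hippocampal neural stem cells (NSCs). The set holds 6 of the 53801 genes in the deposited tables: the ligands Adm and Adm2, the receptor Calcrl, and the receptor activity modifying proteins Ramp1, Ramp2 and Ramp3. They were matched by symbol through the GENCODE mouse annotation. Adm2 and Calcrl were chosen by their RNA levels, which were higher with 4HBP than in controls in proliferation medium, so these levels are given as a description without a test. The choice had no stated threshold. Adm, Ramp1, Ramp2 and Ramp3 were added as their partners.

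Primary NSCs from the hippocampus of E14.5 embryos received 1 µM 4HBP or the EtOH vehicle (control) for 7 days. The labels spell the compound out as 4-Hydroxybenzoic acid, whereas the paper names 4-hydroxybenzophenone. Proliferation medium was DMEM/F12 with EGF, bFGF and 1% B27, and gave 3 libraries with 4HBP and 3 control libraries. Differentiation medium had neither growth factor and 2% B27, and gave 3 libraries with 4HBP and 2 control libraries. All groups were cells grown in culture after the tissue was dissociated, and the paper describes no step that removes vessel cells. No label says that the libraries of a group came from separate embryos or cultures. A p-value here therefore measures only the spread between these libraries, which may be technical.

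Adrenomedullin and adrenomedullin 2 (also called intermedin) are small secreted peptides of the calcitonin family, known above all for widening blood vessels and for the growth and tightness of vessel walls. Their receptor is the calcitonin receptor-like receptor encoded by Calcrl, a class B G protein-coupled receptor that raises cAMP and reaches the cell surface only together with a RAMP. The RAMP sets the ligand: with RAMP1 the complex is the receptor for calcitonin gene-related peptide, whereas with RAMP2 or RAMP3 it is an adrenomedullin receptor. Adrenomedullin 2 acts on all these complexes.

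The sequence before the start of Adm2 is shown because no other member differed as much between groups. Adm2 (ENSMUSG00000054136.6) lies at chr15:89322720-89324731 on the plus strand of GRCm38. The 250 bases before its RefSeq start (chr15:89322470-89322719, plus strand, 5′ to 3′, GRCm38.p6) held none of the 7 motifs searched on both strands, so that no base is in capitals.
Adm2: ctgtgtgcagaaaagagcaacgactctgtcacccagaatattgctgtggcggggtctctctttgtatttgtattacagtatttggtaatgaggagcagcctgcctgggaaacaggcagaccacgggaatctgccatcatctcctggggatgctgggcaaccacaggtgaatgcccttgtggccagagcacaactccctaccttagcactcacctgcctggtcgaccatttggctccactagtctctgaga
The motifs were the cAMP response element TGACGTCA, its shorter form TGACG, the core TGATGNAA of the element bound by ATF4 dimers, the unfolded protein element TGACGTGG, the hypoxia element core (ACGTG or GCGTG), a form of the NF-kB site (3 G, 2 free bases, then TTTCC) and the TATA box TATAAA. A match to TGACGTCA or TGACGTGG is also a match to TGACG. In the windows of the same length before 32817 RefSeq starts, their shares were 1.55%, 17.75%, 3.45%, 0.564%, 38.6%, 1.41% and 12.4%, respectively. The absence of these letters from a window says nothing about which factors act on the gene.

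Calcrl and Adm had matches, which are printed with the matching bases in capitals. Calcrl (ENSMUSG00000059588.13, chr2:84330626-84425411, minus strand) had the core TGATGNAA between 75 and 68 bases before its RefSeq start, in a stretch that GENCODE places in the first exon of its longest transcript, before the coding part. Adm (ENSMUSG00000030790.15, chr7:110627661-110629820, plus strand) had the hypoxia core GCGTG on the minus strand, read as CACGC on the strand shown, 90 to 86 and 54 to 50 bases before its RefSeq start.
Calcrl, chr2:84425323-84425352, minus strand: gcggggcggggTGATGTAAcaggaagctgt
Adm, chr7:110627554-110627583, plus strand: ttttagaagcaagCACGCtggagagggagg
Adm, chr7:110627590-110627619, plus strand: gggcaaatctgacCACGCccaccgtccgcc
These are matches of letters and were not examined for binding. Ramp3 (ENSMUSG00000041046.7, chr11:6658521-6677475, plus strand) also held the hypoxia core, and Ramp1 (ENSMUSG00000034353.14, chr1:91179822-91225196, plus strand) held none of the motifs. The promoter table had an entry for 5 of the 6 members. Ramp2 (ENSMUSG00000001240.13, chr11:101246028-101259546, plus strand) was without one.

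Levels are given in CPM (expected counts scaled to a common library total) for comparisons between libraries, and in TPM (also divided by transcript length) for comparisons between genes. Library depth ran from 20822921 to 23438463 expected counts. At this depth a floor of 3 counts, which covers counting error only, came to 0.128 to 0.144 CPM. In proliferation medium, 4HBP replicate 3 stood apart from replicates 1 and 2, with a mean chi-square per gene of 24.0 and 21.6 against 5.38 between these, and results that rest on it are also given without it. All 8 NSC markers, such as Nes and Sox2, were above 3 counts in every library. Of 10 endothelial markers, 4 to 6 were above 3 counts in a library. Flt1 (20 to 391 counts), Vwf (37.3 to 109 counts) and Kdr (27 to 49 counts) were found in every library, whereas Cdh5 and Cldn5 were at 0 in all 11. The 10 summed to between 2.37 and 5.51 TPM, and the 8 mural markers to between 26.2 and 46.5 TPM. Of the mural markers, Notch3 was the highest (1471 to 3951 counts, 31.69 TPM at most). Rgs5, Acta2 and Tagln were above 3 counts in every library (8 to 61, 29 to 201 and 26 to 240 counts), whereas Pdgfrb ranged from 1 to 671 counts. Kcnj8, Abcc9 and Des had at most 4, 5.25 and 3 counts.

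Adm2 was measured almost only with 4HBP in proliferation medium. It had 32, 68 and 74 expected counts in 4HBP replicates 1, 2 and 3, which equalled 1.51, 3.24 and 3.55 CPM. The proliferation controls held 0, 0 and 1 count, so the groups did not overlap, as for 30.0% of the genes tested. In differentiation medium it had 1, 0 and 0 counts with 4HBP and 2 and 0 counts in controls. All 8 libraries without the combination of 4HBP and proliferation medium were thus at or under the floor of 3 counts per library. Against this floor, the mean of 2.77 ± 1.10 CPM (SD, n = 3) was at least 19.3-fold higher than the proliferation controls, or at least 16.6-fold higher without 4HBP replicate 3. It was at least 20.4-fold higher than with 4HBP in differentiation medium. Among the 3 libraries replicate 1 was the lowest, and replicate 3, the library that stood apart, was the highest.

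**Figure D1:**
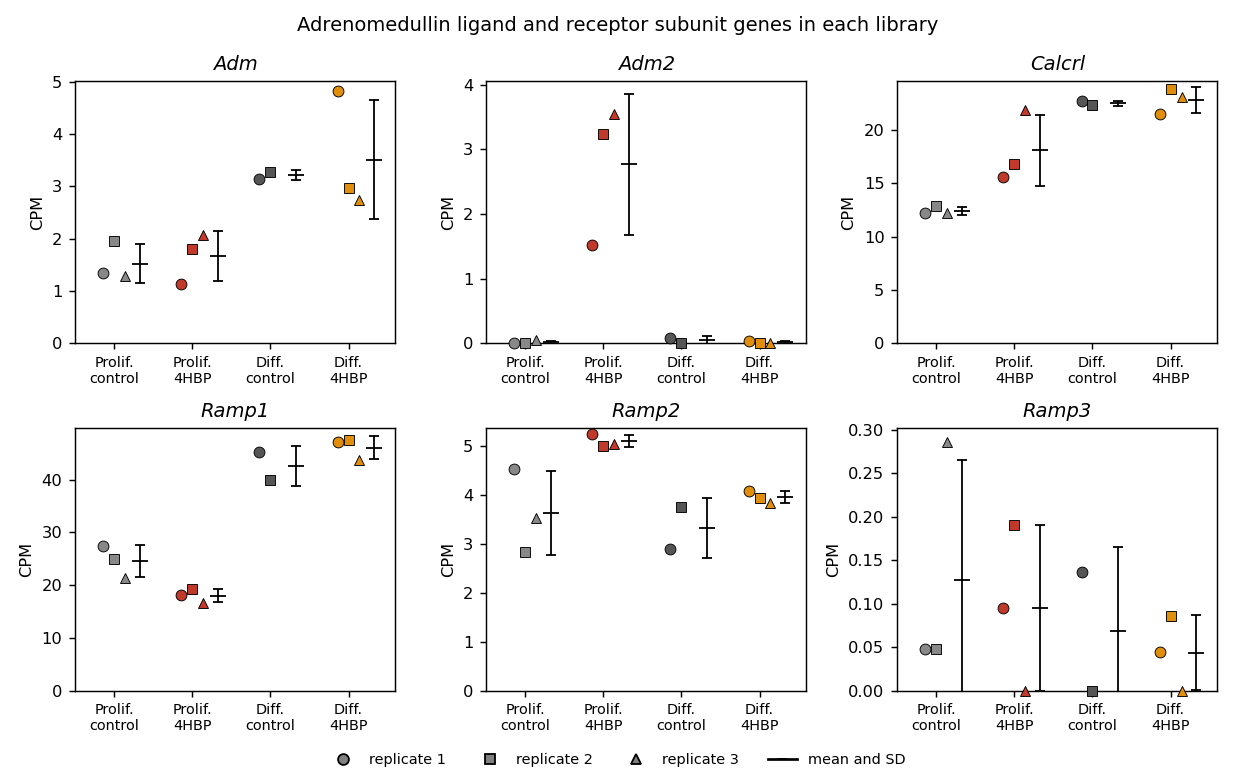
Level of each member in CPM (vertical axes, linear, 1 scale per gene) in the 4 groups, with points for libraries and bars for the mean and SD, drawn down to 0 where the SD exceeds the mean. Adm2 is at 1.51 to 3.55 CPM in the 3 libraries with 4HBP in proliferation medium and at 0.0912 CPM or less in the other 8, whereas Ramp1 with 4HBP in proliferation medium is at 19.2 CPM or less, below all other libraries.

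Adm, the adrenomedullin precursor, was low in every group. It was called between the media with edgeR, as were 61.4% of all genes in controls and 67.2% with 4HBP, but not for 4HBP in either medium. In proliferation medium it stood at 1.14, 1.81 and 2.06 CPM with 4HBP and at 1.34, 1.95 and 1.29 CPM in controls, and the groups overlapped. The log2 fold change was 0.09 (SE 0.30, adjusted p = 0.879, edgeR), and the mean ratio of 1.09 became 0.965 without 4HBP replicate 3. In differentiation medium it stood at 4.83, 2.98 and 2.74 CPM with 4HBP and at 3.15 and 3.29 CPM in controls. These groups overlapped as well, and 4HBP replicate 1 was the highest of all 11 libraries. In the 3 proliferation libraries with 4HBP, Adm2 was above Adm in TPM, with ratios of 1.44, 1.94 and 1.87, whereas in the other 8 libraries Adm was the higher ligand.

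Calcrl, the receptor that all these ligands share, was higher with 4HBP in proliferation medium by CPM, which is how it was chosen. Its levels were 15.6, 16.8 and 21.9 CPM with 4HBP and 12.2, 12.9 and 12.2 CPM in controls. The groups did not overlap, as for 30.0% of the genes tested, and replicate 3 was again the highest. The mean ratio was 1.46, or 1.305 without 4HBP replicate 3, and the log2 fold change was 0.51 (SE 0.10). In differentiation medium the levels were 21.5, 23.8 and 23.1 CPM with 4HBP and 22.7 and 22.3 CPM in controls, so the groups overlapped. The rule did not use these libraries, and there the log2 fold change of 0.03 (SE 0.11) did not pass the test (adjusted p = 1, edgeR).

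By TPM, which divides by the length of the transcripts found, the Calcrl groups in proliferation medium overlapped. The levels were 5.11, 6.77 and 11.93 TPM with 4HBP and 5.21, 5.13 and 5.59 TPM in controls, so that replicate 1 fell below every control. RSEM gave Calcrl an effective length of 3974, 3289 and 2495 bases in 4HBP replicates 1, 2 and 3 and of 3165, 3310 and 2872 bases in the controls. The library that was lowest by TPM thus had the longest effective length, and the highest had the shortest. The annotation holds 2 protein-coding Calcrl transcripts, of 3973 and 4882 bases, and a processed transcript of 500 bases. Counts per gene alone do not tell which of them was sequenced. An effective length is somewhat shorter than its transcript: Adm2, with 1 transcript of 1298 bases, had 1094 to 1105 bases in proliferation medium. Outside 4HBP replicate 1, the Calcrl lengths were shorter than both coding transcripts by more than that. RSEM thus assigned part of Calcrl to the short transcript, in 4HBP and control libraries alike. Its TPM is therefore not that of the coding transcripts alone. Whether the share of the transcripts moved with 4HBP was not tested.

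**Figure D2:**
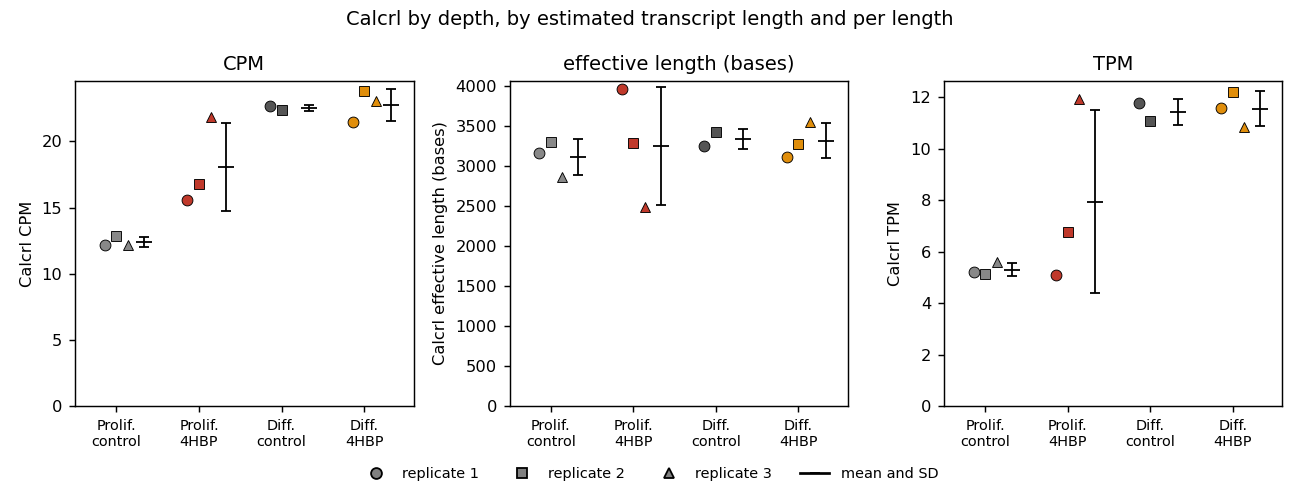
Calcrl in each library by CPM, by the effective length that RSEM used, in bases, and by TPM (vertical axes), with points for libraries and bars for the mean and SD of each group. In proliferation medium the 4HBP libraries lie above all controls by CPM (15.6 or more against 12.9 or less), but by TPM replicate 1 lies at 5.11, below the lowest control at 5.13.

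Ramp1, which turns the receptor towards calcitonin gene-related peptide, was lower with 4HBP in proliferation medium. Its levels were 18.1, 19.2 and 16.65 CPM with 4HBP and 27.4, 24.9 and 21.4 CPM in controls. Every 4HBP library was below every control, where 30.0% of the genes tested did not overlap between the groups. Ramp1 fell by 0.48 on the log2 scale (SE 0.10, adjusted p = 0.0055, edgeR), from a mean of 24.6 ± 3.02 CPM to 18.0 ± 1.29 CPM (SD, n = 3 each). It remained under the threshold when each of the 11 libraries was left out, with an adjusted p between 0.00174 and 0.0274. With limma on log2(CPM+1), fitted to the libraries of this comparison alone and over 27295 genes, the call was lost (adjusted p = 0.197, unadjusted p = 0.0139, log2 fold change -0.42).

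Ramp1 was the only member called of the 3 that could be counted in this comparison (Adm, Ramp1 and Ramp2), where 16.8% of 15920 genes passed and 8.17% were lower. Ramp3 did not pass the filter on low counts. In the same libraries, the summed level of the 8 astrocyte markers was 2559 to 3146 TPM with 4HBP and 3430 to 4021 TPM in controls, and that of the 8 oligodendrocyte lineage markers 1481 to 2342 TPM and 2217 to 2721 TPM. In differentiation medium, where Ramp1 was higher, these sums were 4898 to 5334 TPM and 6677 to 7131 TPM. The 8 NSC markers summed to 4223 to 4597 TPM with 4HBP and 4671 to 4939 TPM in controls in proliferation medium, also without overlap, but to 2340 to 2466 TPM in differentiation medium, the opposite order from Ramp1. The neuron and mural sums overlapped between 4HBP and controls in proliferation medium, as did the oligodendrocyte lineage sums. All 8 astrocyte markers and at least 7 of the 8 oligodendrocyte lineage markers were above 3 counts in every library. Their part in the level of Ramp1 was not tested. In bulk libraries, fewer cells of a type and less RNA per cell cannot be told apart.

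Ramp2, the partner for adrenomedullin, had 5.23, 4.998 and 5.04 CPM with 4HBP and 4.52, 2.83 and 3.51 CPM in controls in proliferation medium. The groups did not overlap by CPM, as for 30.0% of the genes tested, but they overlapped by TPM. The log2 fold change of 0.46 (SE 0.18) did not pass the test (adjusted p = 0.0994, edgeR), and it passed without control replicate 1 (0.64, adjusted p = 0.0441). In differentiation medium Ramp2 stood at 4.07, 3.93 and 3.83 CPM with 4HBP and at 2.89 and 3.75 CPM in controls. These did not overlap by CPM, as for 32.5% of the genes tested, but they overlapped by counts and by TPM, and the ratio of the means was 1.19 by CPM and 0.934 by TPM. The values of Ramp2 are uncertain, because RSEM shared its fragments among 8 transcripts and its annotation overlaps Vps25, at 63.9 to 79.5 CPM, over 5840 bases of the same strand. These bases are an overlap of gene spans, introns included. Ramp2 reaches its annotated end at 101259546 only through a nonsense-mediated decay transcript.

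Ramp3, the other partner for adrenomedullin, was hardly measured. It had 2, 4 and 0 counts with 4HBP and 1, 1 and 6 counts in controls in proliferation medium, and 3 counts or fewer in each differentiation library. Only 4HBP replicate 2 and control replicate 3 in proliferation medium exceeded 3 counts, so no difference was detectable at this depth.

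In differentiation medium no member was called with 4HBP. Of the 4 members with counts to test (Adm, Calcrl, Ramp1 and Ramp2), 0 passed an adjusted p of 0.05 and 0 an unadjusted p of 0.05 with edgeR, and DESeq2 and limma also called 0. The background was 0.0% of 15920 genes (0 genes) with edgeR, against 644 genes (4.05%) at an unadjusted p of 0.05 and 5 genes with DESeq2. Adm2, at 2 counts or fewer, could not pass here and is given no fold. Ramp1 stood at 47.2, 47.4 and 43.7 CPM with 4HBP and at 45.3 and 39.98 CPM in controls, which overlapped. Its log2 fold change was 0.13 (SE 0.10), that of Ramp2 was 0.26 (SE 0.20) and that of Adm was 0.14 (SE 0.29), each with an adjusted p of 1 (edgeR).

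The effect of 4HBP on Ramp1 differed between the media. Its log2 fold change in proliferation medium was lower than that in differentiation medium by 0.61 (-0.61, SE 0.14, adjusted p = 0.0295, edgeR). It was called as 1 of 3 members (Adm, Ramp1 and Ramp2), with 4.49% of all genes called. This call was less steady than that in proliferation medium: the adjusted p exceeded 0.05 in 7 of 11 fits with a library left out (0.187 at most, without differentiation control replicate 2) and was 0.112 with limma on log2(CPM+1). For Adm and Ramp2 the differences were -0.05 (SE 0.42, adjusted p = 0.967) and 0.20 (SE 0.27, adjusted p = 0.739, edgeR).

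**Figure D3:**
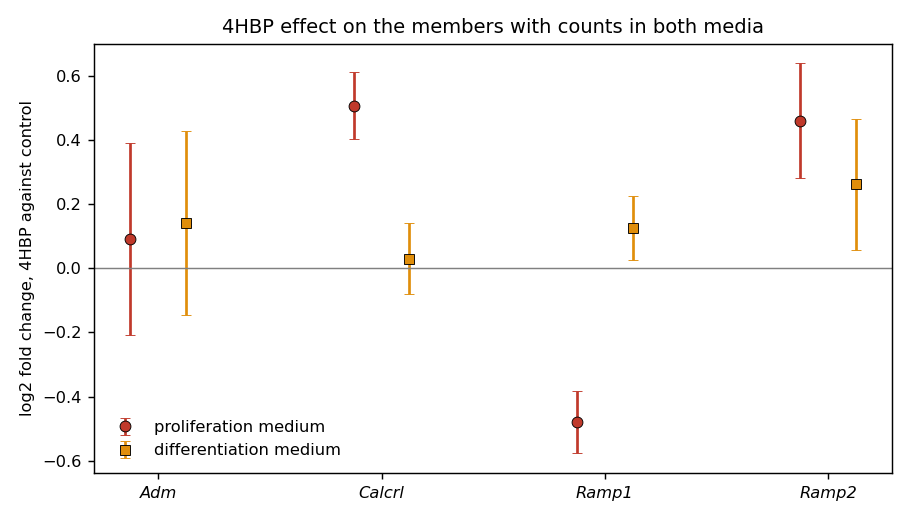
Log2 fold change of 4HBP against control in the edgeR fit (vertical axis) for Adm, Calcrl, Ramp1 and Ramp2, with circles for proliferation medium, squares for differentiation medium and bars for the SE. Ramp1 is the only gene of these under 0 in proliferation medium (-0.48), and the 4 values in differentiation medium lie between 0.03 and 0.26.

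Between the media, Ramp1 and Adm were called in controls and with 4HBP alike, both higher in differentiation medium. In controls, Ramp1 rose from 24.6 ± 3.02 CPM in proliferation medium (SD, n = 3) to 42.7 ± 3.79 CPM in differentiation medium (SD, n = 2), a log2 fold change of 0.71 (SE 0.10, adjusted p = 5.2e-05, edgeR). Adm rose from 1.53 ± 0.369 to 3.22 ± 0.0974 CPM (SD), a log2 fold change of 0.99 (SE 0.31, adjusted p = 0.0132, edgeR), but without differentiation control replicate 2 the adjusted p was 0.0622. Ramp2 differed by -0.21 (SE 0.21, adjusted p = 0.389). The 2 calls among 3 members stand beside 61.4% of all genes called. Calcrl was at 12.4 ± 0.389 CPM (SD, n = 3) and 22.5 ± 0.233 CPM (SD, n = 2), which did not overlap, as for 76.6% of the genes tested. It gets no test here, since the proliferation controls chose it.

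With 4HBP, Ramp1 was 1.31 higher on the log2 scale in differentiation medium (SE 0.09, adjusted p = 7.6e-08, edgeR), and Adm was 1.04 higher (SE 0.27, adjusted p = 0.00467, edgeR). The call of Adm was lost with limma (adjusted p = 0.0695). Ramp2 was lower by 0.41 without passing (-0.41, SE 0.18, adjusted p = 0.0553), and it passed in the fit of the compared libraries alone (adjusted p = 0.0311) and with limma on log2(CPM+1) (adjusted p = 0.00122). Of all genes, 67.2% were called in this comparison. Calcrl lay at 15.6 to 21.9 CPM in proliferation medium and at 21.5 to 23.8 CPM in differentiation medium, so the groups overlapped through replicate 3. Adm, Ramp1 and Ramp2 did not overlap between these groups, beside 70.9% of the genes tested. The comparisons between media share libraries with those of 4HBP and are not independent of them.

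Per length, Ramp1 had the highest mean of the members in every group and the order of the others changed. In proliferation controls the mean TPM was 16.2 for Ramp1, 7.33 for Ramp2, 5.31 for Calcrl and 1.81 for Adm, and these neighbours did not overlap between libraries. With 4HBP it was 12.02 for Ramp1, 10.98 for Ramp2, 7.94 for Calcrl, 3.38 for Adm2 and 1.88 for Adm. There Ramp1, Ramp2 and Calcrl all overlapped with each other, as did Adm2 and Adm. Calcrl overlapped with Ramp1 and Ramp2 only through 4HBP replicate 3. In replicates 1 and 2 Calcrl was at 5.11 and 6.77 TPM, under the lowest Ramp2 value of 9.32 TPM. Ramp2 (12.77 TPM) was above Ramp1 (12.7 TPM) in replicate 2, and Calcrl (11.93 TPM) was above Ramp1 (11.65 TPM) in replicate 3. In differentiation medium Calcrl came second, at 11.4 TPM in controls and 11.6 TPM with 4HBP, after Ramp1 at 36.7 and 39.1 TPM and ahead of Ramp2 at 8.08 and 7.55 TPM. With 4HBP, Ramp2 and Adm (4.85 TPM) overlapped there. Ramp3 and Adm2 were last, except that Adm2 was not with 4HBP in proliferation medium.

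The makeup of the RAMPs followed from these levels. Ramp1 took 64.9%, 73.1% and 68.0% of the summed RAMP TPM in the proliferation controls and 51.7%, 49.4% and 55.6% with 4HBP, and the groups did not overlap. In differentiation medium it took 84.4% and 78.8% in controls and 81.6%, 83.9% and 85.8% with 4HBP. The sum itself was 20.7 to 27.5 TPM in the proliferation controls and 21.0 to 25.7 TPM with 4HBP, and 42.4 to 48.4 TPM in differentiation medium. Divided by the TPM of Calcrl, the sum was 5.28, 4.47 and 3.71 in proliferation controls and 4.44, 3.799 and 1.76 with 4HBP. Only 4HBP replicate 3, at 1.76, lay outside the range of these controls. In differentiation medium the quotient was 3.83 to 4.14. RNA levels do not give the number of receptor complexes. These shares carry the uncertainty of Ramp2, and the values divided by Calcrl also carry that of its transcript length.

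**Figure D4:**
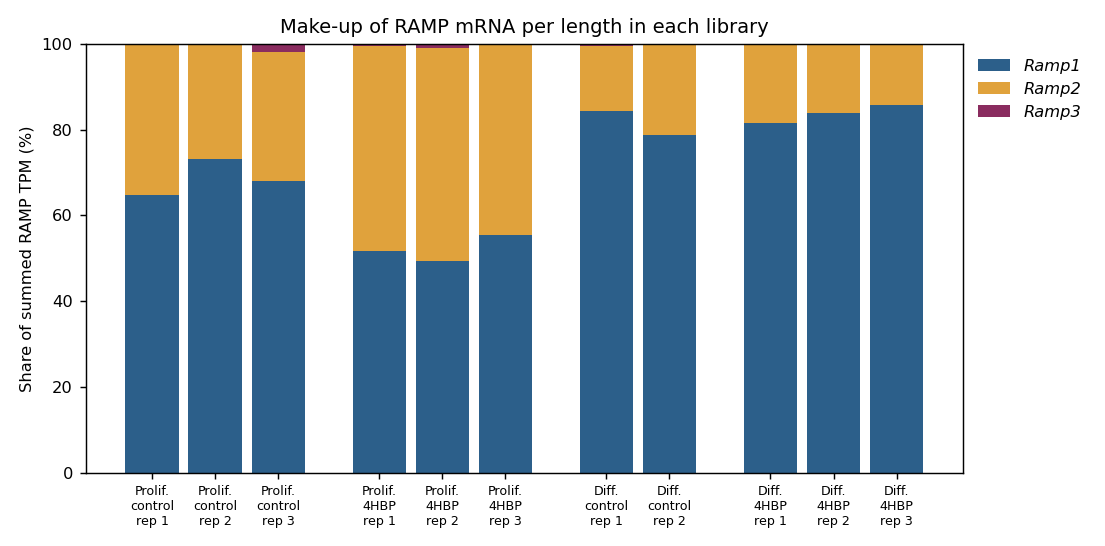
Shares of Ramp1, Ramp2 and Ramp3 in their summed TPM, in percent (vertical axis), as 1 stacked bar for each library. With 4HBP in proliferation medium the share of Ramp1 is 49.4% to 55.6%, below the 64.9% to 73.1% of the controls, and in differentiation medium it is 78.8% to 85.8%.

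Other peptides and receptors of the family gave few counts. Calcb, Iapp and the calcitonin receptor Calcr were at 0 in all 11 libraries, Calca, which encodes calcitonin and calcitonin gene-related peptide, had 8 counts or fewer, and Gpr182 had at most 1. Of the other receptors in the list, Ackr3 (a decoy receptor for adrenomedullin and CXCL12) and Crcp (a component proposed for the calcitonin gene-related peptide receptor) were measured, and neither passed with 4HBP in either medium. In controls, Ackr3 was higher in differentiation medium by 1.25 (SE 0.24, adjusted p = 5.3e-04, edgeR), from 3.94 to 9.97 CPM, and Crcp lower, with a log2 fold change of -0.31 (SE 0.11, adjusted p = 0.0216, edgeR), where 61.4% of all genes passed. Neither was called with limma, and Crcp was not called with scaling by library totals.

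Genes that process peptides or carry the signal of the receptor were examined in lists chosen with earlier results of these data known. With 4HBP in proliferation medium, where 16.8% of all genes were called, 0 of 13 processing genes were higher and 1 lower. This was Cpe, carboxypeptidase E, which trims propeptides and fell from 1275 to 1005 CPM (log2 fold change -0.38, SE 0.05, adjusted p = 5.5e-04, edgeR). Of 28 genes of G protein and cAMP signalling, 2 were higher and 3 lower, with a median of 0.03 against 0.00 over all genes. The 5 of 28 called stand beside 16.8% of all genes, a like share, and 1 was called with the replicate block or in the fit of the proliferation libraries alone and 0 with limma. Among them, the adenylyl cyclase Adcy8 fell (-1.27, adjusted p = 0.00305) and Adcy3 rose (0.44, adjusted p = 0.023), and Crtc2, a coactivator of CREB, rose (0.33, adjusted p = 0.0159, edgeR). The phosphodiesterase Pde4d fell (-0.33, adjusted p = 0.00873). Of 12 genes of receptor desensitization and recycling, 0 were higher and 2 lower, a share like the 16.8% of all genes. The 2 were the arrestin Arrb1 (-0.27, adjusted p = 0.00565) and the scaffold Slc9a3r1 (-0.56, adjusted p = 0.0195, edgeR). With limma and in the fit of the proliferation libraries alone, 1 of these was called.

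In differentiation medium, none of these genes passed with 4HBP with edgeR or DESeq2 over all libraries, or with limma on the 5 differentiation libraries. With edgeR on those 5 libraries alone, 2 genes passed. These were Adcy8 (0.42, adjusted p = 0.00401) and Grk3 (-0.33, adjusted p = 0.0322), and they were named after their values were seen. Between media in controls, the lists were called at shares near the 61.4% of all genes, so the counts say little about them. Of 13 processing genes, 7 were higher and 2 lower. The prohormone convertase Pcsk2 was 2.46 and the peptidase neprilysin, Mme, was 2.45 higher on the log2 scale. Of the signalling genes, 13 were higher and 6 lower, led by the cyclases Adcy2 (3.05) and Adcy8 (2.19) and the cAMP sensor Rapgef3 (2.08). Of the desensitization genes 3 were higher and 4 lower, led by the receptor kinase Grk3 (1.95) and Slc9a3r1 (-1.59).

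The genes whose levels were most like those of Adm2 over the 11 libraries were Wars, Itpripl2, Noc3l, Cyb5r1 and Slc7a5, with a Pearson r of log2 CPM between 0.976 and 0.985. Adm2 was at or under the floor outside 4HBP in proliferation medium. A high r with Adm2 therefore picks genes that were higher in the same libraries for which Adm2 was chosen. Wars, a tryptophanyl-tRNA synthetase, had a mean of 218 CPM with 4HBP in proliferation medium and of 87.1 CPM in its controls. Slc7a5, a large neutral amino acid transporter, had 600.2 and 268.6 CPM. For Calcrl they were Nfkbia, Dhrs7, Sept8, Hey1 and Aig1 (r between 0.980 and 0.987). Nfkbia, an inhibitor of NF-kB, had 17.8 CPM with 4HBP and 11.8 CPM in controls in proliferation medium, and 22.9 and 23.7 CPM in differentiation medium. Adm2 and Calcrl themselves had an r of 0.03. For Ramp1 they were H3f3a, Cdk5, Tmem254b, Sema5b and Slc16a4 (0.990 to 0.991). The libraries share medium and treatment, so r describes their pattern, with no test.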

How the data were processed

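RNA of 11 NSC libraries was sequenced after poly(A) selection as stranded paired reads. The authors trimmed reads with cutadapt, ran FastQC 0.11.5, and quantified genes with RSEM 1.3.0 and Bowtie2 2.2.9 on mm10 (GRCm38, GENCODE vM17). The deposited tables hold expected counts without normalization and TPM and FPKM values that the authors' RSEM run normalized for length and depth. Of values above 0, 18.6% were not whole (tolerance 0.005).

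Expected counts were rounded, filtered with filterByExpr, scaled by TMM and fitted with edgeR 4.0.16 (R 4.3.3; glmQLFit and glmQLFTest, two-sided) with 1 mean for each of the 4 groups over 11 libraries. Genes with a Benjamini-Hochberg adjusted p under 0.05 over 15920 genes were called. SEs were derived from the log2 fold change and the F statistic. limma 3.58.1 on log2(CPM+1), the scale and tool of the paper, which called genes by an unadjusted p and a fold threshold, and with a pseudocount of 0.1, DESeq2 1.42.0, other scaling, no filter, the compared libraries alone, omitting single libraries and blocking on the replicate number were alternatives, all with the adjusted p under 0.05 and no fold threshold. The limma fits had no filter on low counts, so their p was adjusted over 27295 genes. They used only the libraries compared, except for the difference between media, which used all 11. The code was tested on simulated data. Symbols came from GENCODE vM21 (99.66% of identifiers matched), promoters from RefSeq (GRCm38.p6).

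The members and lists were chosen with earlier results of these data known. Named were the members, up to 4 genes per list and comparison with the largest fold change among those called, and the 5 genes most correlated with each member. Python 3.11.15 and pandas 2.3.3 were used.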

Additional observations from a re-analysis of the deposited data

Results flagged for a closer look

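The log2 fold change of Ramp1 with 4HBP differed between proliferation and differentiation medium by -0.61 (SE 0.14, adjusted p = 0.0295, interaction term in edgeR), which is a difference of the effect between groups under the same contrast. The fold change was -0.48 in proliferation medium, where every 4HBP library was below every control and 30.0% of the genes tested did not overlap. In differentiation medium it was 0.13, and the groups overlapped. In 7 of 11 fits with a library left out, the adjusted p of the difference exceeded 0.05.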

How the results depend on the processing

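The number of members called fell to 0 with limma on log2(CPM+1) and on log2(CPM+0.1) for 4HBP in proliferation medium and for the difference between media, and to 0 with a replicate block for the latter. Leaving out single libraries gave 1 to 2 members for 4HBP in proliferation medium, 0 in differentiation medium, 0 to 1 for the difference, 1 to 2 between media in controls and 2 to 3 between media with 4HBP. Of 414 values of single members under these settings, 382 kept their side of the threshold or, for values without a test, moved by less than 1 SD. The sign changed in 11 of them, in values within 1 SE of 0 that were not called (Adm and Calcrl with 4HBP, and the differences of Adm and Ramp2 between media), and in 0 called values. Why the calls moved was not tested.

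Replicate numbers did not pair the libraries. Same-numbered 4HBP and control libraries deviated from their group means with a correlation of -0.0611, -0.115 and -0.143 in proliferation medium and of 0.128 and 0.0079 in differentiation medium. With the block, the adjusted p of the Ramp1 difference was 0.0622. In this fit differentiation 4HBP replicate 3 had no partner in its medium.

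Over all genes, 2668 of 15920 were called for 4HBP in proliferation medium, against 1074 in the fit of its 6 libraries and 1479 with the block. On those 6 libraries and without the filter, limma called 67 and 56 of 27295 genes (pseudocounts of 1 and 0.1). In differentiation medium 0 were called, against 395 in the fit of its own libraries, 147 with limma (0.1), 116 without the filter and 5 with DESeq2. For the difference 715 were called, against 156 with the block, 264 and 157 with limma, 1086 with DESeq2 and 1616 without the filter. Scaling by library totals moved the median log2 fold change of all genes between media in controls from 0.03 to 0.11, and the split in proliferation medium from 1367 higher and 1301 lower to 1716 and 1126.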

Other observations

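Of 13 other class B peptide receptors, the family of Calcrl, 5 were in the fit. With 4HBP in proliferation medium 0 were higher and 2 lower, beside 16.8% of all genes called, and in differentiation medium 0 were called. With limma 0 were called in proliferation medium, and in the fit of its libraries alone 1 of 3. Adcyap1r1, the receptor for the neuropeptide PACAP, stood at 731 ± 65.0 CPM in controls and at 389 ± 34.4 CPM with 4HBP (SD, n = 3), and its log2 fold change was -0.94 (SE 0.08, adjusted p = 5.0e-05, edgeR). Pth1r, the parathyroid hormone receptor, fell from 1.49 to 0.573 CPM (-1.41, SE 0.36, adjusted p = 0.0172, edgeR). Both also differed between the media in their 4HBP effect (-0.90, adjusted p = 0.00273, and -2.01, adjusted p = 0.031, edgeR). In controls, Sctr, the secretin receptor, was at 0 in proliferation medium and at 1.84 ± 0.243 CPM (SD, n = 2) in differentiation medium.

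Of 14 genes of the PERK-ATF4 pathway in the fit, 9 were higher and 1 lower with 4HBP in proliferation medium, beside 16.8% of all genes called. The median log2 fold change was 0.59 against 0.00 over all genes, and limma called 0 of the list. Like the other lists, it was written with earlier results of these data known, so its share called is a description. Gdf15, a secreted stress cytokine, rose by 3.03 (SE 0.33, adjusted p = 1.7e-04), Nupr1 by 2.58 (SE 0.22, adjusted p = 3.3e-05), Trib3 by 1.79 (SE 0.34, adjusted p = 0.004) and Asns, asparagine synthetase, by 1.37 (SE 0.11, adjusted p = 3.3e-05, edgeR). Of 15 hypoxia response genes, a group to which Adm is known to belong, 4 were higher and 3 lower, beside the same 16.8%, and limma called 0. Car9, a carbonic anhydrase, had the largest change (-1.37, SE 0.35, adjusted p = 0.0215), followed by Ndrg1 (1.20, SE 0.35, adjusted p = 0.0352, edgeR). Epas1, a hypoxia-inducible factor, fell by 0.96 on the log2 scale (SE 0.14, adjusted p = 7.3e-04), and Pfkfb3, an activator of glycolysis, rose by 0.72 (SE 0.13, adjusted p = 0.00266, edgeR). In differentiation medium 0 of the genes in these lists passed with edgeR or DESeq2 over all libraries, or with limma on the differentiation libraries. In the edgeR fit of those libraries alone 1, Vegfa, passed (-0.24, adjusted p = 0.00705). It was named after its value was seen.

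The genes most like Adm over the libraries were Ring1, C730034F03Rik, Hint3, Trappc6a and Olfr1191-ps1 (Pearson r between 0.953 and 0.966), and those most like Ramp2 were Wdcp, Cd2bp2, Urb2, Kif3b and Pfdn4 (0.898 to 0.913).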
